A study of Mus musculus musculus x M. m. domesticus and Mus musculus musculus x Mus musculus castaneus and Mus musculus domesticus with 42 samples.

Results

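The genes followed here mark the Sertoli cell, the somatic cell that lines the seminiferous tubule and nurses the germ cells of the testis. They were Sox9, Wt1, Cldn11, Rhox5, Amh, Amhr2, Fshr, Gata4, Inha and Inhbb. Every probe set whose symbol in the platform annotation is or includes one of these 10 genes was taken, which gave 16 of the 45037 probe sets analysed. Sox9 and Amhr2 had 3 probe sets each, Gata4 and Inhbb 2 each, and the other 6 genes 1 each. No probe set was chosen or dropped for its signal.

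Signals were measured on 1-colour Affymetrix mouse arrays in testis, brain and liver of 14 males, with 2 males in each of 7 genotypes and 1 array per male and tissue (42 arrays). The males were pure or F1 offspring of inbred lines founded from wild mice of the house mouse subspecies musculus, domesticus and castaneus, and no transgene, deletion or treatment is named for any group. The maternal subspecies comes first in the name of an F1. The musculus x castaneus F1 was sampled at 53 days, the castaneus x musculus F1 at 54, the musculus x domesticus F1 at 53, the domesticus x musculus F1 at 50, castaneus at 47, domesticus at 45 and musculus at 47. Each genotype had a single age, so genotype and age cannot be told apart except between castaneus and musculus, and between the musculus x castaneus and musculus x domesticus F1. Each subspecies stands for its line alone. The study asked how transcripts that differ between parental subspecies are expressed in F1 males, and which transcripts leave the parental range in the F1. The labels call the replicates biological and give RNA of whole organs. In such bulk samples, fewer cells of a type, less RNA per cell and a larger share of other cells cannot be told apart.

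Sertoli cells are specified in the fetal gonad when SRY switches on SOX9 in cells that already hold WT1 and GATA4, and they then secrete anti-Müllerian hormone (AMH). In the adult they respond to follicle-stimulating hormone through its receptor FSHR, and return inhibin, a dimer of an alpha subunit (Inha) and a beta subunit (such as Inhbb), which lowers pituitary FSH release. Tight junctions between Sertoli cells, built in part from claudin 11 (Cldn11), form the blood-testis barrier that separates meiotic germ cells from the blood.

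The deposited values are MAS5 intensities, and differences are given here on the scale of log2(signal + 31), where a dim transcript's change reads smaller than it was. The brightest 27022 probe sets of each tissue, those whose mean reached the 40th percentile, were tested with limma. A call is an adjusted p (Benjamini-Hochberg over all probe sets tested) under 0.05, and limma's 2-sided test is meant throughout. Of the 16 probe sets, 13 passed in testis, covering every gene except Amh. The 3 that did not were the Amh probe set, 1 of Gata4 (1418864_at) and 1 of Sox9 (1433889_at). Without the musculus x castaneus F1 arrays the same 13 passed. The 2 testis arrays of the musculus x castaneus F1 stood apart. Of their median signals, 158 lay above the 95 to 142 of the other 12 testis arrays and 134 lay within it. The 95 was that of the first castaneus x musculus F1 male. Mean correlations of the musculus x castaneus F1 arrays with other genotypes were 0.942 and 0.946, against 0.953 to 0.966. Their own replicate correlation was 0.976, within the 0.974 to 0.979 of the 7 genotypes, and leaving out either array or quantile normalization left at least 7 of the 9 calls reported for that F1 below. Both arrays share what sets them apart, so these values cannot tell a difference of the testes from one of the arrays. That was not tested.

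The testis, set against brain and liver, carried most of these transcripts at a higher level. Over all 42 arrays, 10 of the 16 probe sets were higher in testis than in brain and 2 were lower, at a background of 72.9% of all 45037 probe sets called, 29.5% higher. Against liver, 14 were higher and 1 lower, at a background of 73.3% called, 32.6% higher. No filter on low signals was applied here, so every probe set was tested.

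Amhr2, the type II receptor for AMH, was far brighter in testis than in the other tissues. Its probe set 1427989_at lay between 1657 and 3467 in testis (median 1983), between 4 and 17 in brain and between 5 and 23 in liver. The 3 Amhr2 probe sets were 5.08 to 7.09 higher in testis than in brain and 5.26 to 7.40 higher than in liver on the log2 scale. Probe set 1427989_at was under the offset of 31 on all 28 brain and liver arrays, and 1457021_x_at on all but 3 of them, so the size of these differences depends on the offset. 2 of the Amhr2 probe sets carry the suffix _x_at, which marks probes that can also bind other transcripts, so their signals are uncertain as measures of Amhr2 alone. Wt1, a zinc finger factor needed for Sertoli cell identity, had a median of 765.5 in testis, 33 in brain and 44 in liver. Its range in testis, 499 to 1738, did not overlap those of 12 to 51 in brain and 10 to 85 in liver. The log2 differences of Wt1 were 3.78 ± 0.131 (SE) against brain and 3.55 ± 0.131 against liver. Rhox5, an X-linked homeobox gene expressed in Sertoli cells under androgen control, likewise kept apart, at 752 to 3419 in testis (median 1195.5), 17 to 125 in brain and 63 to 191 in liver. Rhox5 was 3.73 higher than in brain and 3.15 higher than in liver.

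Inha and the leading Inhbb probe set were also highest in testis. Inha lay between 1825 and 5587 in testis (median 2582), 553 and 812 in brain and 144 and 411 in liver, and the leading Inhbb probe set (1426858_at) between 885 and 1967 in testis (median 998), 196 and 355 in brain and 58 and 148 in liver. No tissue overlapped another for either probe set. The log2 differences were 1.86 and 1.88 against brain and 3.00 and 3.18 against liver for Inha and this Inhbb probe set in that order. The other Inhbb probe set, 1426859_at, overlapped between tissues, with 152 to 551 in testis, 203 to 374 in brain and 40 to 329 in liver, and its testis minus brain difference was not called (0.23, 95% interval -0.15 to 0.60, adjusted p = 0.267), while it was 1.22 higher than in liver.

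Other members did not separate testis from both other tissues. Cldn11 is also a myelin protein of oligodendrocytes, and its testis range of 1495 to 4240 lay mostly below the 2903 to 4933 of brain, while liver had 3 to 56. Cldn11 was lower in testis than in brain (log2 difference -0.78 ± 0.0902) and 5.21 higher than in liver. Sox9, which is also expressed by glia, overlapped between testis and brain in both of its brighter probe sets. Its probe set 1424950_at lay at 85 to 380 in testis (median 172) and 173 to 405 in brain (median 265), a log2 difference of -0.54, and 1451538_at at 197 to 415 in testis and 177 to 378 in brain, which was not called (-0.05, 95% interval -0.28 to 0.17). Gata4 (1418863_at), a zinc finger factor also expressed outside the gonad, was lower in testis (208 to 457) than in liver (275 to 591) by a log2 difference of -0.45, and higher than in brain by 1.08. The FSH receptor probe set was only modestly higher in testis, at 177 to 359, against 57 to 214 in brain and 84 to 270 in liver, and those ranges overlapped. Fshr was 0.95 higher than in brain and 0.54 higher than in liver.

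Amh, which Sertoli cells produce in quantity before puberty and little of afterwards, read 28 to 110 in testis (median 51.5), 26 to 108 in brain and 19 to 87 in liver. The testis range of Amh did not set it apart from brain (log2 difference -0.03, 95% interval -0.29 to 0.23). The plot of signals by tissue shows these levels side by side.

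**Figure D1:**
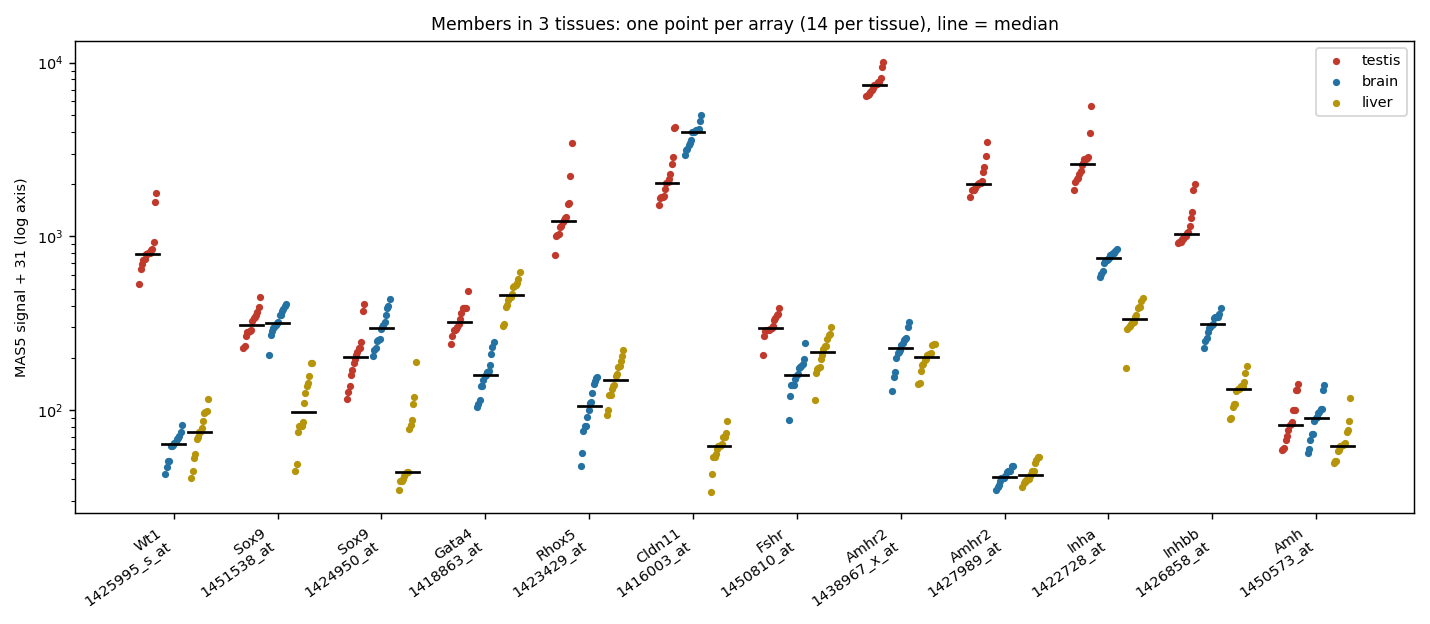
Signal + 31, on a log axis, of the leading probe set of each of the 10 genes and of Sox9 1424950_at and Amhr2 1427989_at, with 1 point per array, 14 arrays per tissue and a line at the median of testis, brain and liver. Amhr2, Wt1, Rhox5, Inha and Inhbb separate testis from both other tissues, Cldn11 reaches its highest levels in brain (up to 4933), and Amh overlaps between testis (28 to 110) and brain (26 to 108).

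Among the testes, the musculus x castaneus F1 carried more of most of these transcripts than any other genotype. In 10 of the 13 tested probe sets both of its arrays lay above all 12 other testis arrays, which held for 22.2% of all tested probe sets. In 0 of 13 did both lie below, against 10.7% of all. No other F1 had a member probe set entirely above or below the other 12 arrays.

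The factors of Sertoli cell identity differed among themselves. Wt1 (1425995_s_at, a suffix for probes that can bind several transcripts) had signals of 1549 and 1738 in the musculus x castaneus F1, 615 and 808 in castaneus x musculus F1 males, 767 and 895 in the musculus x domesticus F1, and 697 and 667 in the domesticus x musculus F1. In the parents Wt1 had 762 and 764 in castaneus, 499 and 709 in domesticus and 774 and 817 in musculus. Both musculus x castaneus F1 arrays were thus higher than every other array, and the remaining genotypes overlapped or lay close together.

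The Sox9 probe sets did not show 1 pattern. Probe set 1424950_at had 380 and 340 in the musculus x castaneus F1, 129 and 196 in castaneus x musculus F1 males, 216 and 97 in castaneus and 139 and 155 in musculus. The domesticus cross gave 196 and 167 in the musculus x domesticus F1, 177 and 85 in the domesticus x musculus F1, and 185 and 107 in domesticus, so here too the musculus x castaneus F1 stood above all others. The leading probe set, 1451538_at, had 336 and 307 in the musculus x castaneus F1, 250 and 321 in castaneus x musculus F1 males, 312 and 295 in castaneus and 364 and 415 in musculus. It had 256 and 251 in the musculus x domesticus F1, 204 and 235 in the domesticus x musculus F1, and 197 and 258 in domesticus. On this probe set the musculus males were the highest of all, and the musculus x castaneus F1 fell inside the range of its parents' arrays. The third, 1433889_at, read 6 to 43 in every testis and was not tested. Gata4 (1418863_at) had 457 and 358 in the musculus x castaneus F1, against 208 to 357 (median 276.5) on the other 12 arrays, a gap of a single unit at its narrowest.

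Cldn11 had signals of 4186 and 4240 in the musculus x castaneus F1, 1656 and 2248 in castaneus x musculus F1 males, 1675 and 1495 in castaneus and 1622 and 1651 in musculus. In the domesticus cross it had 1833 and 2833 in the musculus x domesticus F1, 2025 and 1993 in the domesticus x musculus F1, and 2103 and 2578 in domesticus. The musculus x castaneus F1 averaged 4213 ± 38.2 (SD, n = 2), against 1585 ± 127 in castaneus and 1636.5 ± 20.5 in musculus (n = 2 each). Rhox5 had 2191 and 3419 in the musculus x castaneus F1, 752 and 1006 in castaneus x musculus F1 males, 995 and 1099 in castaneus and 971 and 1113 in musculus. It had 1246 and 1512 in the musculus x domesticus F1, 1259 and 1210 in the domesticus x musculus F1, and 1181 and 1521 in domesticus. The 2 musculus x castaneus F1 males were themselves far apart for Rhox5 (mean 2805 ± 868 SD, n = 2), yet the lower of them exceeded every other male.

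For the hormones and their receptors, Inha had 3880 and 5587 in the musculus x castaneus F1, 2632 and 2114 in castaneus x musculus F1 males, 1825 and 2030 in castaneus and 2149 and 2358 in musculus. The other Inha values were 2748 and 2844 in the musculus x domesticus F1, 2242 and 2532 in the domesticus x musculus F1, and 2785 and 2759 in domesticus. Castaneus was the lowest of the 7 genotypes in Inha, with both arrays below the other 12, as in 3.48% of all probe sets. The leading Inhbb probe set had 1967 and 1814 in the musculus x castaneus F1, 975 and 1241 in castaneus x musculus F1 males, 1347 and 1110 in castaneus and 904 and 930 in musculus. It had 900 and 1021 in the musculus x domesticus F1, 1030 and 932 in the domesticus x musculus F1, and 969 and 885 in domesticus. The other Inhbb probe set, 1426859_at, scattered within genotypes, with 481 and 486 in the musculus x castaneus F1 and 297 and 551 in musculus, and did not separate that F1.

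The Amhr2 probe set without an _x_at suffix (1427989_at) had 2857 and 3467 in the musculus x castaneus F1, 2045 and 1967 in castaneus x musculus F1 males, 1999 and 1942 in castaneus and 1657 and 1820 in musculus. The domesticus cross overlapped these lower values, with 1831 and 2474 in the musculus x domesticus F1, 1880 and 2001 in the domesticus x musculus F1, and 1826 and 2325 in domesticus. The _x_at probe sets gave 9363 and 10024, and 9689 and 11225, in the musculus x castaneus F1, against at most 8074 and 7081 on the other 12 arrays. Musculus was the lowest genotype on 2 of the 3 Amhr2 probe sets (1427989_at and 1457021_x_at), with both arrays below the other 12, as in 4.57% of all probe sets. Fshr had 359 and 267 in the musculus x castaneus F1, against 177 to 328 on the other 12 arrays, and overlapped them.

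**Figure D2:**
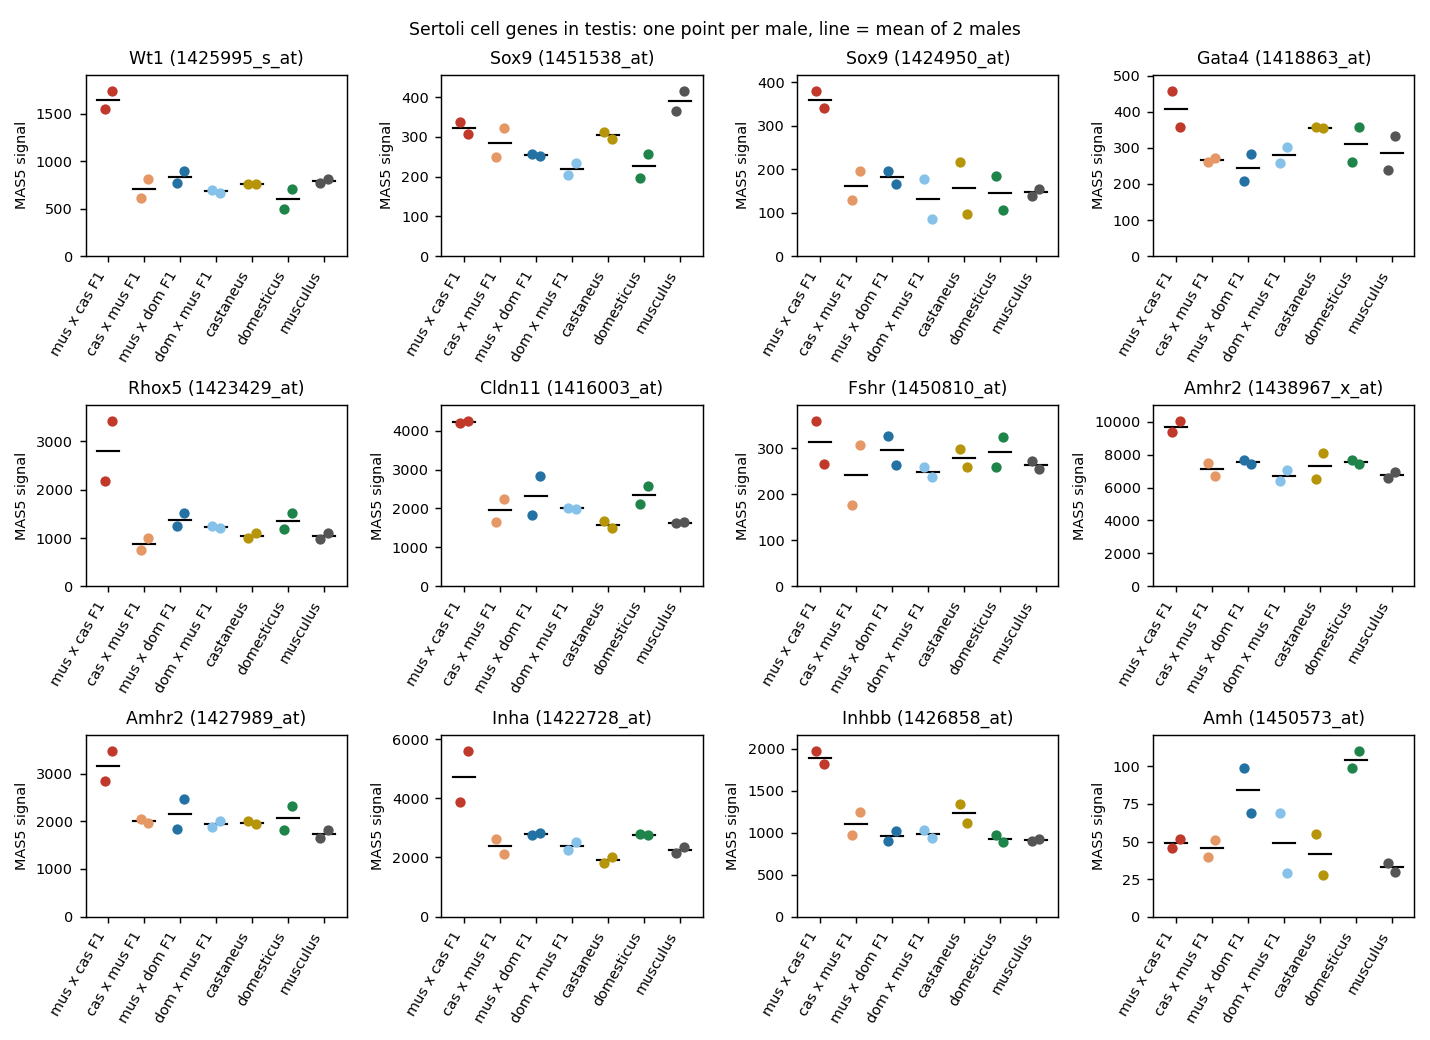
Testis signal of the leading probe set of each gene, and of Sox9 1424950_at and Amhr2 1427989_at, in the 7 genotypes (mus, musculus; cas, castaneus; dom, domesticus), with 1 point per male and a line at the mean of the 2 males on a linear axis that starts at 0. In Wt1, Cldn11, Rhox5, Inha, Inhbb and Amhr2 both musculus x castaneus F1 points lie above all others, while in Fshr and Sox9 1451538_at they overlap other genotypes.

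Against the mean of its parents on the log2 scale, the musculus x castaneus F1 was called higher in 9 of the 13 member probe sets and lower in 0, from 7 of the 9 genes. The background was high, at 35.3% of all tested probe sets called and 21.9% called higher. Over the 13 member probe sets the median difference was 0.76, against 0.14 over all tested probe sets. By leading probe set 6 of 9 genes were called and the median was 0.82. Cldn11 exceeded the midparent by 1.37 ± 0.168 (SE; adjusted p = 5.82e-05), Rhox5 by 1.37 ± 0.183 (adjusted p = 0.000106) and Inha by 1.15 ± 0.146 (adjusted p = 7.33e-05). Sox9 1424950_at exceeded it by 1.13 ± 0.302 (adjusted p = 0.0102), Wt1 by 1.05 ± 0.156 (adjusted p = 0.000232) and Inhbb by 0.82 ± 0.135 (adjusted p = 0.000477). The Amhr2 probe sets exceeded it by 0.76 (adjusted p = 0.00122), 0.74 (adjusted p = 0.000118) and, for the leading 1438967_x_at, 0.47 (adjusted p = 0.00538). Without the first or the second musculus x castaneus F1 male the Sox9 call was lost (adjusted p = 0.0740 and 0.0542), and without the second so was that of Amhr2 1438967_x_at (adjusted p = 0.0679).

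The 4 probe sets without a call had differences of 0.33 for Gata4 (95% interval -0.08 to 0.74), 0.30 for Inhbb 1426859_at (-0.40 to 0.99), 0.18 for Fshr (-0.27 to 0.62) and -0.09 for Sox9 1451538_at (-0.44 to 0.27). Quantile normalization moved the median of all tested probe sets to 0.02 and left 9 member probe sets called higher and 0 lower. Calls over all probe sets ran 62.0% upward as deposited and 51.1% upward after quantile normalization.

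In the 3 other F1 no member was called. limma called 0 of 13 member probe sets against the midparent in the castaneus x musculus F1 (0.3% of all called, 0 members at an unadjusted p under 0.05), 0 in the musculus x domesticus F1 (0.292%, 0 unadjusted) and 0 in the domesticus x musculus F1 (0.27%, 1 unadjusted, Sox9 1451538_at). The members' differences spanned -0.57 to 0.26, -0.25 to 0.27 and -0.39 to 0.20 in these F1, in the same order. The contrasts of a cross share its parental arrays.

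**Figure D3:**
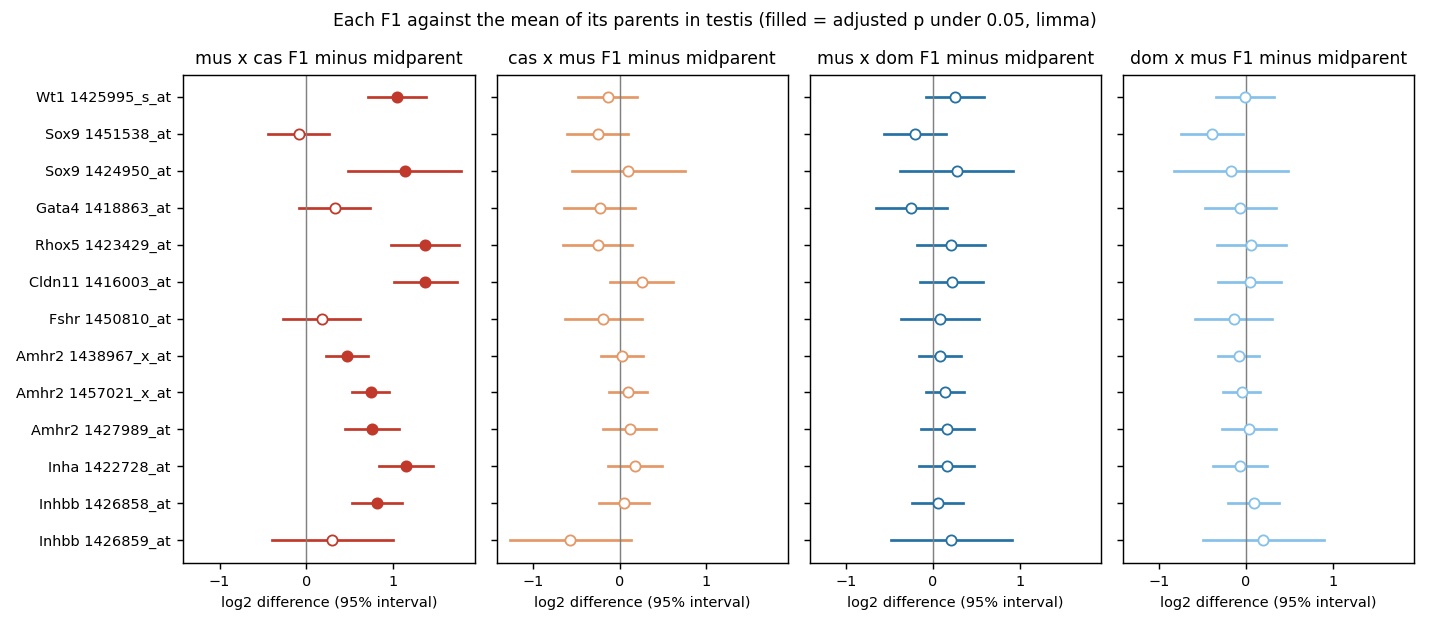
Log2 difference from the midparent, with its 95% interval, for the 13 tested member probe sets in each of the 4 F1 in testis, with filled points for an adjusted p under 0.05. The musculus x castaneus F1 is called higher for 9 probe sets, with differences up to 1.37, and the intervals of the other 3 F1 scatter around 0 with no call.

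Set against the single parents, the musculus x castaneus F1 was above each in most member probe sets. It was called higher in 9 of 13 member probe sets against musculus (36.2% of all called, 22.3% higher). Against castaneus it was called higher in 9 of 13 (27.4% of all called, 15.8% higher), and in 7 without the filter. Against musculus and castaneus in that order, Cldn11 differed by 1.35 and 1.40, Rhox5 by 1.37 and 1.36 and Inha by 1.04 and 1.26. Wt1 differed by 1.02 and 1.07 and Inhbb by 1.02 and 0.61. The Inhbb call against castaneus was lost without the second castaneus male (adjusted p = 0.108) or the first musculus x castaneus F1 male (adjusted p = 0.0625). After quantile normalization Sox9 1451538_at was called lower in this F1 than in musculus (-0.50, adjusted p = 0.0382). Each of those contrasts uses the same F1 arrays. limma called 0 of 13 in each of the other 6 contrasts of an F1 with a parent. The castaneus x musculus F1 gave 0 against castaneus (2.24% of all called, 0 at an unadjusted p under 0.05) and 0 against musculus (2.94%, 1 unadjusted). The musculus x domesticus F1 gave 0 against domesticus (1.77%, 1 unadjusted) and 0 against musculus (3.07%, 3 unadjusted), and the domesticus x musculus F1 gave 0 against domesticus (1.62%, 0 unadjusted) and 0 against musculus (2.88%, 1 unadjusted).

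The 2 F1 of a cross were also averaged, as the study's question of additivity implies. In the castaneus cross 7 of 13 member probe sets, from 6 genes, were above the midparent (17.4% of all called, 9.56% higher). Cldn11 was higher by 0.81, Inha by 0.66, Rhox5 by 0.56, Wt1 by 0.45, Inhbb by 0.43 and 2 Amhr2 probe sets by 0.44 and 0.42. That count was 3 without the second castaneus x musculus F1 male, and 4 without the second musculus x castaneus F1 male or the first musculus male. Taken alone against this midparent, the musculus x castaneus F1 had 9 calls and the castaneus x musculus F1 had 0. In the domesticus cross limma called 0 of 13 (0.414% of all called), with 1 at an unadjusted p under 0.05.

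All member calls between reciprocal F1 came from the castaneus cross. The musculus x castaneus F1 exceeded the castaneus x musculus F1 in 9 of 13 member probe sets from 7 genes, with 0 lower, at a background of 28.4% called and 17.9% called higher. Rhox5 differed by 1.62 ± 0.211 (SE; adjusted p = 0.000213), Wt1 by 1.18 ± 0.181 (adjusted p = 0.000567), Cldn11 by 1.11 ± 0.194 (adjusted p = 0.00131), Inha by 0.97 ± 0.168 (adjusted p = 0.00125) and Inhbb by 0.76 ± 0.156 (adjusted p = 0.00335). The Amhr2 probe sets differed by 0.64, 0.64 and 0.45, and Sox9 1424950_at by 1.03 ± 0.349 (adjusted p = 0.0410), a call that 5 of 9 other settings did not keep. Amhr2 1438967_x_at lost its call in 3 of the 9 (adjusted p up to 0.120) and 1427989_at in 2 (up to 0.105), each time without 1 male of these F1. Gata4 (0.56, 95% interval 0.08 to 1.03, adjusted p = 0.0750), Inhbb 1426859_at (0.86, adjusted p = 0.0995), Fshr (0.36) and Sox9 1451538_at (0.16) were not called. The median over all tested probe sets was 0.24 for this contrast and 0.03 after quantile normalization. Of all calls 62.9% ran upward as deposited and 44.8% after quantile normalization, when 8 member probe sets were called, all higher.

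In the domesticus cross, the musculus x domesticus F1 minus the domesticus x musculus F1 gave 0 calls among 13 (0.204% of all called, 0 at an unadjusted p under 0.05), with Cldn11 at 0.18 (95% interval -0.24 to 0.60), Rhox5 at 0.15 (-0.31 to 0.61) and Wt1 at 0.27 (-0.12 to 0.66). The reciprocal differences of the crosses were compared directly, as that of the domesticus cross minus that of the castaneus cross. They differed in 3 of 13 member probe sets (6.58% of all called, 1.91% lower). The difference was -1.47 ± 0.299 for Rhox5 (adjusted p = 0.0117), -0.91 ± 0.255 for Wt1 (adjusted p = 0.0499) and -0.79 ± 0.220 for Inhbb (adjusted p = 0.0480). The median over all tested probe sets was -0.19, and an offset of 16 ended the Wt1 call (adjusted p = 0.0523). Cldn11 (-0.93, adjusted p = 0.0608) and Inha (-0.74, adjusted p = 0.0826) missed the threshold. These calls depended on single males and on the processing. The count was 0 without the first musculus x domesticus F1, the second musculus x castaneus F1 or the first castaneus x musculus F1 male, 1 without either domesticus x musculus F1 male or without the filter on dim signals, and 7 after quantile normalization.

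Rhox5 is X-linked, so an F1 male carries the copy of his mother's subspecies, and the maternal parent is the comparison with the same X. The musculus x castaneus F1 exceeded musculus in Rhox5 by 1.37 (95% interval 0.92 to 1.83). The castaneus x musculus F1 minus castaneus was -0.26 (-0.71 to 0.20), the musculus x domesticus F1 minus musculus 0.39 (-0.06 to 0.85) and the domesticus x musculus F1 minus domesticus -0.12 (-0.57 to 0.34), and none of these 3 was called. In the parents Rhox5 differed by 0.01 (-0.45 to 0.46) between castaneus and musculus and by 0.36 (-0.10 to 0.81) between domesticus and musculus, neither called.

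Between the parental subspecies, 1 member probe set was called in 1 of the 3 contrasts. Domesticus against musculus gave 1 call of 13 (12.8% of all called), the Sox9 probe set 1451538_at, which had 197 and 258 in domesticus and 364 and 415 in musculus. The groups did not overlap, and the log2 difference was -0.71 ± 0.190 (95% interval -1.12 to -0.30, adjusted p = 0.0247). The call was lost without the first domesticus male (adjusted p = 0.202), the first musculus male (adjusted p = 0.0632) or the second (adjusted p = 0.154), and the other tested Sox9 probe set showed no such difference (-0.04, 95% interval -0.79 to 0.71). Both musculus arrays lay above the other 12 for this probe set, as in 3.63% of all probe sets. limma called 0 of 13 for castaneus against musculus (13.5% of all called), with 1 at an unadjusted p under 0.05, Inhbb at 0.40 (95% interval 0.07 to 0.74). It called 0 of 13 for castaneus against domesticus (12.4% of all called), with 3 at an unadjusted p under 0.05. Those were Inha at -0.52 ± 0.168 (adjusted p = 0.0618), Cldn11 at -0.55 ± 0.194 (adjusted p = 0.0868) and Inhbb at 0.39 ± 0.156 (adjusted p = 0.130). Inha was called after quantile normalization (-0.53, adjusted p = 0.0363) or without the musculus x castaneus F1 arrays (-0.52, adjusted p = 0.0295).

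Amh, below the filter in testis, had 99 and 110 in domesticus, 55 and 28 in castaneus and 36 and 30 in musculus. The domesticus males were the 2 highest parental males. With all probe sets tested, Amh differed between domesticus and musculus by 1.08 ± 0.307 (95% interval 0.42 to 1.75), which did not pass the adjustment (adjusted p = 0.0504). Among the F1 it read 46 and 52 in the musculus x castaneus F1, 40 and 51 in castaneus x musculus F1 males, 99 and 69 in the musculus x domesticus F1 and 69 and 29 in the domesticus x musculus F1. The second Gata4 probe set, 1418864_at, read 19 to 119 across testes and did not order the genotypes.

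In brain and liver the members gave no genotype call. In brain 9 member probe sets were tested and in liver 7. limma called 0 in brain for domesticus against musculus (5.75% of all called, 1 at an unadjusted p under 0.05), castaneus against musculus (6.07%, 0 unadjusted) and castaneus against domesticus (5.77%, 0 unadjusted). It called 0 in liver for the same contrasts (6.17%, 6.55% and 6.12% of all called, 0 unadjusted in each). The musculus x castaneus F1 against its midparent gave 0 of 9 in brain (0.0518% of all called, 0 unadjusted), with Cldn11 at 0.07 (95% interval -0.34 to 0.48) and Inha at -0.16 (-0.41 to 0.09). In liver it gave 0 of 7 (0.133% of all called, 1 unadjusted, Amhr2 1438967_x_at at -0.58).

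The comparison of tissues within 1 fit of all 42 arrays, with no filter on dim signals, was added after the data were seen. The difference of the musculus x castaneus F1 from its midparent was larger in testis than in brain for 3 of 16 member probe sets (6.66% of all called, 4.67% higher). It was larger in testis than in liver for 5 of 16 (7.35% of all called, 5.21% higher). Against brain these were Cldn11 at 1.30 ± 0.292 (adjusted p = 0.00629), Inha at 1.31 ± 0.237 (adjusted p = 0.00110) and Inhbb at 0.92 ± 0.282 (adjusted p = 0.0462, and 0.0743 with an offset of 16, which ends that call). Against liver they were Cldn11 at 1.61 ± 0.292 (adjusted p = 0.00116), Rhox5 at 1.67 ± 0.419 (adjusted p = 0.0135), Amhr2 1438967_x_at at 1.05 ± 0.248 (adjusted p = 0.00862), Inha at 1.01 ± 0.237 (adjusted p = 0.00832) and Inhbb at 0.99 ± 0.282 (adjusted p = 0.0302). Rhox5 against brain was 0.55 (95% interval -0.31 to 1.41), where its brain signals of 17 to 125 were dim. This fit did not pair the tissues of a male. Of the parental differences it called 0 of 16 as dependent on tissue in each of 6 contrasts. Between 0 and 2 had an unadjusted p under 0.05. The backgrounds in testis minus brain were 2.35% of all called for domesticus minus musculus, 2.13% for castaneus minus musculus and 1.91% for castaneus minus domesticus, and in testis minus liver 5.02%, 4.95% and 4.44% for the same differences. Amhr2 1438967_x_at came nearest, for domesticus minus musculus in testis minus brain (1.03 ± 0.286, adjusted p = 0.0516), and with the animal as a block it was called (adjusted p = 0.0200).

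Other genes of the same cell and its pathways were counted in the musculus x castaneus F1 against its midparent, with 1 probe set per gene and the 35.3% called (21.9% higher, 13.4% lower) as the background of each list. Of 28 other Sertoli cell genes, 24 had a probe set annotated with that symbol alone and 22 were tested, and 14 were higher and 0 lower, with a median of 0.69 against 0.14 over all tested probe sets. The largest called differences were in Serpina5, a serine protease inhibitor (1.35), Vim, the intermediate filament vimentin (1.24), Tsx, an X-linked testis gene (1.22), and Dmrt1, a regulator of testis fate also expressed in spermatogonia (1.12). In the blood-testis barrier list 9 of 15 were higher and 1 lower (median 0.38). The junction proteins Gja1 (1.09), F11r (1.09), Cgn (0.72) and Tjp1 (0.58) were among those higher. Without the second musculus x castaneus F1 male the barrier count was 3 higher and 1 lower.

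Signalling downstream of the members was mixed. Among 18 tested genes of activin, inhibin and AMH signalling 8 were higher and 2 lower (median 0.53). The type I receptor Acvr1 (1.28) and the shared mediator Smad4 (1.01) were higher, while Acvr2a, a type II activin receptor, was lower (-1.01), as was Smad6, an inhibitory SMAD (-1.61). Of 10 genes of FSH receptor signalling 5 were higher and 1 lower (median 0.51), with the cAMP phosphodiesterase Pde4d at 1.03, the protein kinase A subunits Prkar2a and Prkacb at 0.91 and 0.82, and the G protein subunit Gnas at 0.68. The gene called lower was Prkar1a, another protein kinase A subunit (-0.36, adjusted p = 0.0430), and Prkaca was not called (0.38, adjusted p = 0.0741). Activin list medians ran from 0.32, with quantile normalization, to 0.61 over the 12 alternatives. Of 19 gonad determination factors 7 were higher and 0 lower (median 0.33), a share near the 35.3% of all probe sets called. That median was 0.0675 without the first musculus x castaneus F1 male, 0.127 with quantile normalization and 0.16 without the filter. The 7 included Dmrt1, Cited2 (1.05), Nr0b1 (0.95) and Sox8 (0.89). 4 of those factors are also in the list of other Sertoli genes, which shares Gja1 and Espn with the barrier list. Of 12 genes listed from the Rhox cluster 3 had a probe set with their symbol alone and of these Rhox13 passed the filter and was higher (1.02).

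Genes of other testis cells moved in the same 2 arrays. Of 7 tested Leydig cell markers 5 were higher and 0 lower (median 0.93), with the steroidogenic genes Cyp11a1 at 1.42, Cyp17a1 at 1.21, Star at 0.93 and Hsd3b1 at 0.93. Of 14 spermatid markers 0 were higher and 11 lower (median -0.71), with Catsper1, a sperm calcium channel subunit, at -1.31, Tssk1 at -1.12, Acrv1 at -1.02 and Tssk2 at -0.95. Spermatogonial markers gave 4 higher and 1 lower of 11, spermatocyte markers 4 higher and 3 lower of 13 (median -0.02), myoid markers 1 higher and 1 lower of 5, macrophage markers 1 higher and 0 lower of 6, and endothelial markers 0 higher and 1 lower of 5. The Leydig count was 3 without either musculus x castaneus F1 male, the first musculus male or the second castaneus male. The spermatogonial count was 2 higher and 1 lower without the first musculus x castaneus F1, the first musculus or either castaneus male, and 2 higher and 0 lower without the second musculus x castaneus F1 male, and was also 3 in all without the filter or with quantile normalization. Spermatocyte markers gave 1 higher and 2 lower without the first musculus x castaneus F1 male and 2 of each without the second, and macrophage markers 2 higher without the first musculus male or with the male number as a block. Inha, Gata4 and Amhr2 are themselves also expressed in Leydig cells.

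Summed over the list, the member signals came to 24334 and 27806 in the musculus x castaneus F1, against 13906 to 17406 on the other 12 testis arrays. Amhr2 1438967_x_at was the brightest of these, at 6374 to 8074 on the other 12 arrays and 9363 and 10024 in that F1. The other Sertoli genes summed to 78996 and 85100 there, against 45735 to 64152, and the Leydig markers to 24118 and 26846, against 10569 to 20907. The spermatid markers summed to 110681 and 124401, against 146460 to 220778, so these lists did not overlap between that F1 and the other males. Spermatogonial markers also kept apart, at 12584 and 12689, against 7153 to 8776, with Dazl the brightest of them (2834 to 6876 over all testes, 0.84 above the midparent) and Zbtb16 lower (-1.42). Spermatocyte markers (82362 and 86009, against 77757 to 103125), myoid markers (7361 and 7710, against 6694 to 9343), macrophage markers (2760 and 3003, against 1762 to 3053) and endothelial markers (1217 and 1327, against 964 to 2335) overlapped. No marker of any list was at 0 on a testis array. The part of the Leydig, spermatogonial and spermatid signals in the members' result was not tested.

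**Figure D4:**
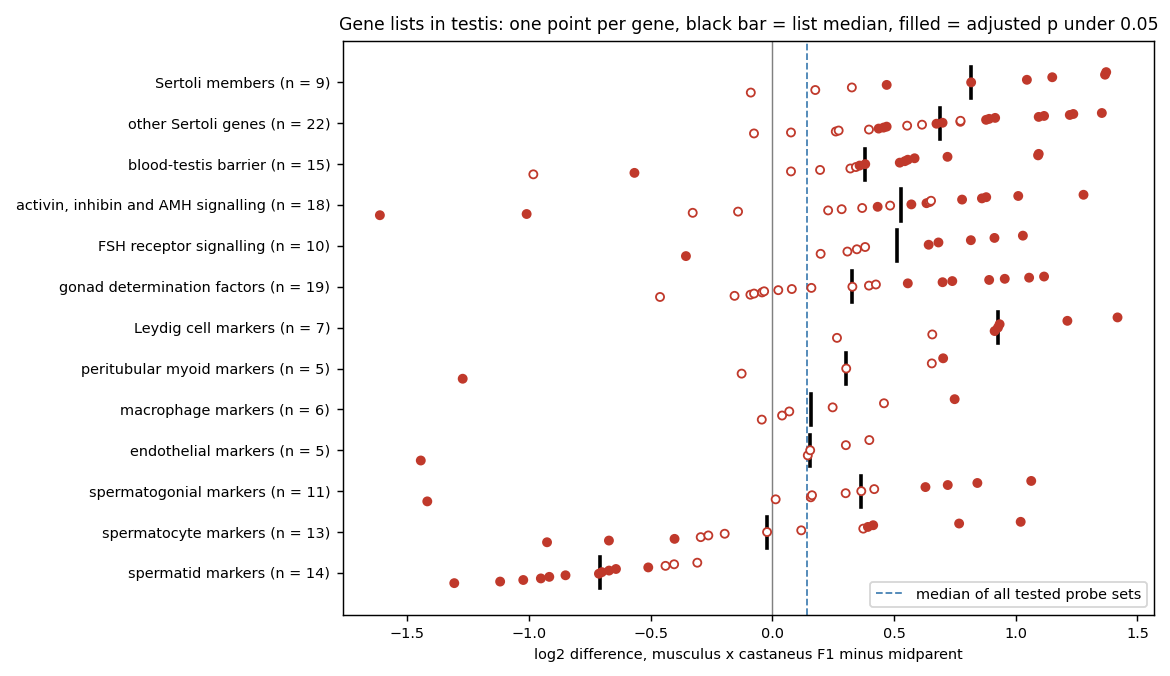
Log2 difference of the musculus x castaneus F1 from its midparent in testis for every tested gene of the members and of each other list, with 1 point per gene, filled where called, and a bar at the list median. Medians run from 0.93 for Leydig cell markers and 0.82 for the members to -0.71 for spermatid markers, and the dashed line marks the 0.14 of all tested probe sets.

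Against the castaneus x musculus F1, a contrast that shares the musculus x castaneus F1 arrays with the one above, 28.4% of all probe sets were called, 17.9% higher and 10.6% lower, with a median of 0.24. Of the other Sertoli genes 15 of 22 were higher and 0 lower (median 0.75), of the barrier genes 8 higher and 2 lower, of the Leydig markers 3 of 7 higher, and of the spermatid markers 8 of 14 lower (median -0.61). The 2 genes of the barrier list called lower were Cldn3 (-1.34, adjusted p = 0.0301) and Nectin3 (-0.50, adjusted p = 0.0173). Membership of a list does not tell which testis cells carried a transcript. In the castaneus x musculus, musculus x domesticus and domesticus x musculus F1 limma called 0 genes of any list against the midparent. In those 3 F1, 2, 1 and 1 of the 22 other Sertoli genes had an unadjusted p under 0.05.

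Between the parents, some of the other Sertoli genes were called, on small counts. Whether their share differs from that of all tested probe sets, or from that of the members, was not tested. Domesticus had 1 higher and 4 lower than musculus, castaneus 4 higher and 0 lower than musculus, and castaneus 5 higher and 0 lower than domesticus, of 22 each, against 12.8%, 13.5% and 12.4% of all called. Serpina5 was 1.19 higher in domesticus and 2.47 higher in castaneus than in musculus. Shbg, the sex hormone-binding globulin gene, was lower in domesticus than in musculus (-1.51), as were Espn (-1.50), Sox8 (-1.11) and Drd4 (-0.96). The pathway genes went both ways. Inhba, the subunit of activin A, was lower in domesticus than in musculus (-1.64), as was Six4 (-1.51). Zfpm2, the GATA4 cofactor FOG2, was lower than in musculus in both domesticus (-1.68) and castaneus (-1.13), as was Pde4d (-0.79 and -0.90). In castaneus Arrb1 was lower than in musculus (-0.69), while Acvr1 (1.14), Smad9 (0.86) and Smad4 (0.67) were higher.

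How alike the members' profiles were over the testis arrays depended on the musculus x castaneus F1. Over the 36 pairs of the 9 leading probe sets, Pearson's r had a median of 0.51 (range -0.02 to 0.90) with all 14 arrays and of 0.11 (range -0.72 to 0.71) with the 12 others. The genes outside the list most like the members' mean profile were Jarid2 (r = 0.974), B630019K06Rik (0.972) and Rlim (0.966), which had r of 0.857, 0.772 and 0.762 over the 12 arrays. For Wt1 they were Prickle1, Rpl41 and Hs6st1 (0.966 each), for Cldn11 Pkdcc (0.967), Etfa (0.953) and Syngr2 (0.949), for Rhox5 Ssbp3 (0.961), Tceal8 (0.946) and Rab14 (0.945), and for Inhbb Zfp292 (0.976), Marcks (0.976) and Eif3a (0.972). Amhr2 was most like Eppin (0.941), Ctsl (0.916) and Gm2a (0.914), and Inha most like Psat1 (0.936), Ppib (0.930) and Chsy1 (0.930). Sox9 1451538_at, whose profile did not turn on that F1, was most like Parn (0.878), Adar (0.858) and Ank3 (0.856), with r of 0.908, 0.851 and 0.853 over the 12 arrays. The arrays of a genotype share their signal level, so these r describe the profiles only.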

How the data were processed

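The deposited values are 1 intensity per probe set and array on a linear scale, which the authors computed with MAS5 (per the submitters' processing notes). Its version, detection calls and scan batches were not given in the sources used here. Trimmed array means ran from 496.87 to 498.59, which shows a common scaling before deposit, and 1063 values were listed as 0. The depth of an array has no count, and the number of arrays limits the precision.

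Genotype, tissue, male number and age came from the labels. Symbols came from the platform annotation (34945 probe sets with 1 symbol, 932 with several, 9160 with none). No genome or sequence was used, so whether subspecies variants under a probe lower its signal was not tested. Signals were taken as log2(signal + 31), with 31 the 20th percentile of all values. limma 3.58.1 in R 4.3.3 (lmFit, eBayes with an intensity trend) fitted genotype over the 14 arrays of a tissue, which left 7 residual degrees of freedom, for the 27022 probe sets whose mean reached the 40th percentile (a signal of 84.3 in testis). All 42 arrays and 45037 probe sets entered 1 fit for contrasts between tissues. P-values were adjusted by Benjamini-Hochberg within each contrast, 20 of them in testis, and the fit was tested on simulated data. Summaries used Python 3.11.15 with pandas 2.3.3 and numpy 2.4.6.

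A gene was led by its probe set with the highest testis mean. Of each other list at most the 4 called genes with the largest differences were to be named, apart from members, and the 3 genes most like a called member by Pearson's r. The parental genes of other lists, and the members of small counts, were named after their values were seen. The members and lists were chosen with earlier results of these data known. List genes with no probe set under the symbols used were not analysed here.

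Alternatives were offsets of 16 and 100, no filter, quantile normalization, the male number as a block, a linear midparent, each array left out in testis contrasts, and for all 42 arrays the animal as a random block. Contrasts of the musculus x castaneus F1 by tissue, list medians and fits without that F1 were added after the data were seen. Same-numbered males of different genotypes did not deviate together in testis (10 of 21 correlations of their deviations were above 0.1, from -0.390 to 0.306), so the number does not pair them. The 3 tissues of 1 male, which the labels pair, did (21 of 21, from 0.159 to 0.476).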

Additional observations from a re-analysis of the deposited data

Results flagged for a closer look

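In testis, the reciprocal difference of the domesticus cross differed from that of the castaneus cross for 3 members by a test of the difference itself. It was -1.47 for Rhox5, -0.91 for Wt1 and -0.79 for Inhbb on the log2 scale, as the domesticus cross minus the castaneus cross (limma over 14 testis arrays). The median over all tested probe sets was -0.19. No call was left without the first musculus x domesticus F1, the second musculus x castaneus F1 or the first castaneus x musculus F1 male. An offset of 16 ended the Wt1 call (adjusted p = 0.0523).

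The difference of the musculus x castaneus F1 from its midparent differed between tissues by the interaction in the fit of all 42 arrays. Testis minus brain was 1.30 for Cldn11, 1.31 for Inha and 0.92 for Inhbb, the last not called with an offset of 16 (adjusted p = 0.0743). Testis minus liver was 1.61 for Cldn11, 1.01 for Inha, 1.67 for Rhox5, 0.99 for Inhbb and 1.05 for Amhr2 1438967_x_at. With 2 arrays in each group, no group was large enough to look for a single array far from the rest.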

How the results depend on the processing

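Counts below are of member probe sets called by limma. Leaving out 1 array at a time gave 7 to 9 for the musculus x castaneus F1 against its midparent, 6 to 10 against the castaneus x musculus F1, 7 to 8 against musculus and 6 to 8 against castaneus, with 9 in each as reported. It gave 3 to 7 for the mean of both F1 of the castaneus cross (7 reported), 0 to 1 for domesticus against musculus (1 reported) and 0 to 4 for the difference of the reciprocal differences (3 reported), and 0 in the other testis contrasts. Without the filter that last count was 1, and with quantile normalization 7. The domesticus x musculus F1 against musculus had 1 call in place of 0 with an offset of 100 or quantile normalization, Sox9 1451538_at at -0.62 and -0.79. Castaneus against domesticus had 1 in place of 0 with quantile normalization or without both musculus x castaneus F1 arrays, Inha in each. For the musculus x castaneus F1 by tissue, testis minus brain had 5 in place of 3 with an offset of 100 or quantile normalization, and testis minus liver 8 in place of 5 with an offset of 100, while an offset of 16 ended the Inhbb call in testis minus brain. Domesticus minus musculus in testis minus brain had 1 in place of 0, Amhr2 1438967_x_at, with an offset of 100, a filter at the 40th percentile or the animal as a block. The block gave 4 and 6 calls for the musculus x castaneus F1 in testis minus brain and testis minus liver. The male number as a block left 9 for the musculus x castaneus F1 against its midparent and the same count in every other testis contrast, though within the difference of reciprocal differences Cldn11 gained a call (adjusted p = 0.0444) and Inhbb lost its own (adjusted p = 0.0535). The cause of these changes was not tested. Over the 12 alternatives Cldn11 stayed between 1.33 and 1.56 above the midparent in the musculus x castaneus F1, Rhox5 between 1.05 and 1.68, Inha between 0.89 and 1.41, Wt1 between 0.96 and 1.13 and Inhbb between 0.75 and 0.88, all called. Of the list medians, that of spermatocyte markers (-0.02) was 0.109 with quantile normalization, and 0.0843 and -0.13 without the first and the second musculus x castaneus F1 male, and that of macrophage markers (0.16) was -0.016 with quantile normalization. With 2 males per genotype and whole-tissue signals, a change in the number of Sertoli cells cannot be told apart from a change within them. Nor can either be told apart from a change in the share of other cells. Spermatid markers were lower and Leydig markers higher in the musculus x castaneus F1, and their part was not tested.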
